A study of Rattus norvegicus with 28 samples.

Results

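Chromatin accessibility was compared between dorsal root ganglia (DRGs) of rats with an inflamed hind paw and DRGs of naïve rats. The comparison takes in all 56810 accessible regions in the table of the complete Freund's adjuvant (CFA) model, measured in 6 CFA libraries and 3 naïve libraries, which make up 18 of the 28 samples of the series because each of these libraries was sequenced in 2 runs. Each library came from the ipsilateral L4-L6 DRGs of 1 adult male Sprague-Dawley rat, 12 weeks old. CFA rats had received an emulsion of the adjuvant under the sole of the hind paw, in each hind paw by the wording of the methods, and their DRGs were taken 48 h later, after von Frey testing had shown mechanical hypersensitivity, and rats that did not become hypersensitive were not used. Naïve rats were untreated, so the groups differ in the injection itself as well as in the adjuvant. A library holds whole ganglia, in which a change in the share of a cell type and a change within its cells cannot be told apart.

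The DRG holds the cell bodies of the primary sensory neurons that carry touch, temperature and pain signals to the spinal cord, wrapped by satellite glia and accompanied by Schwann cells and resident immune cells. ATAC-seq uses a transposase that inserts sequencing adapters where DNA is not protected by nucleosomes, so read coverage over a region measures how open its chromatin is. Open regions outside promoters are often enhancers, which tend to lie in clusters around active genes, and an adjuvant injection brings on an inflammation of the paw that sensitizes the neurons innervating it.

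Values are log2 normalized coverage, and a difference of 1 between groups is a doubling of coverage on this scale. The values ran from 0.44 to 12.80, and the library medians ran from 5.73 to 5.74, because the 9 libraries share nearly the same distribution of values. A change in accessibility common to all regions therefore cannot be seen, and gains are balanced by losses somewhere in the table. Read depth per region is unknown from normalized values. In the column names 2 CFA libraries carry no replicate number that the labels tie to ATAC-seq, and they are called CFA replicate a and CFA replicate b. The tissue was checked in the 2 CFA RNA-seq libraries, of 10520647 and 28825688 counts, where the sensory neuron markers included Nefm, a neurofilament gene, at 11580 CPM (counts scaled to the library total), Scn10a, a sodium channel gene of pain-sensing neurons, at 559 CPM, and the neuropeptide gene Tac1 at 303 CPM. Among 9 markers of satellite glia and Schwann cells 3 could be identified, with 39.7 CPM for Gja1, 802 CPM for Prx and 2035 CPM for the myelin gene Mbp. Markers of immune cells and muscle could not be identified, and no naïve RNA-seq library was analysed here.

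At an unadjusted p below 0.001 in limma, 321 regions gained accessibility after CFA, which is 0.565% of the 56810 regions, and 316 lost it, which is 0.556%. Together these differentially accessible regions (DARs) make up 1.12% of all regions. The groups did not overlap, with every CFA value on 1 side of every naïve value, in 634 of the 637 DARs and in 11% of all regions. No region passed a Benjamini-Hochberg adjusted p of 0.05 in limma, where the smallest adjusted p was 0.0858 and 10761 regions had an unadjusted p below 0.05. Letting the prior variance follow the level of a region raised the DARs to 2365, or 4.16% of regions, and then 3716 regions passed an adjusted p of 0.05 in limma. With a robust prior, sample quality weights or a cyclic loess normalization 0 regions passed it. The calls moved with single libraries, since there were 296 DARs without naïve replicate 1, 288 without naïve replicate 2, 415 without CFA replicate 4 and 348 without CFA replicate 5. In all 9 fits that each left out 1 library, 70 of the 637 regions stayed at p below 0.001, comprising 34 gained and 36 lost regions.

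Gained and lost DARs lay in different kinds of places. Gained DARs had a median width of 534 bp, which is close to the median of 549 bp over all regions, while the lost DARs had a median width of 880 bp. Around a gained DAR a median of 10 other regions lay within 100 kb, against 4 around a lost DAR and 7 around any region. The nearest other region was a median 5.26 kb from a gained DAR, 17.1 kb from a lost DAR and 8.50 kb from any region. Mean levels were alike, with medians of 6.68 for gained and 6.61 for lost DARs, and both lay above the median of 5.70 over all regions. These medians describe the DARs and were not tested.

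The width of a region tracked the direction of its change. The share of DARs rose from 0.798% at 251 to 400 bp to 1.67% at 1500 bp and wider. It was 1.07% up to 250 bp and 1.12% over all regions. Between the same 2 classes the median absolute log2 fold change fell from 0.23 to 0.15. The median residual SD between libraries of a group fell from 0.32 to 0.13. The higher share of DARs in wide regions thus went with smaller changes and a smaller spread. Among the 1618 regions of 1500 bp and wider, 27 were DARs and 26 of these had lost accessibility. Regions of 1001 to 1499 bp included 28 gained and 98 lost DARs, those of 601 to 1000 bp 100 gained and 109 lost, those of 401 to 600 bp 90 gained and 40 lost, and those of 251 to 400 bp 74 gained and 28 lost. In the 4003 regions of up to 250 bp there were 28 gained and 15 lost DARs, but 20 gained and 21 lost once naïve replicate 2 and CFA replicate 6 were both left out. Without the same libraries regions of 1500 bp and wider had 0 gained and 5 lost DARs, and regions of 251 to 400 bp had 57 gained and 28 lost. Among DARs of 1001 to 1499 bp 22.2% had gained, against 6.06% without naïve replicate 2 and 35.5% without naïve replicate 3. The share of gained regions among DARs of 1500 bp and wider ran from 0.0% without naïve replicate 1 to 12.5% without naïve replicate 3.

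The same order appeared in the mean of whole classes of regions. In regions of 1500 bp and wider the mean level of a library ran from 8.61 to 8.65 in the naïve group, and the CFA libraries had 8.49 at the lowest, 8.54 at the median and 8.56 at the highest. All 6 CFA libraries were thus below all 3 naïve libraries. Regions of 1001 to 1499 bp had library means of 7.84 to 7.86 in the naïve group and of 7.77 to 7.81 after CFA, also without overlap. For regions of 251 to 400 bp the order was the reverse, with naïve means of 4.90 to 4.91 and CFA means of 4.94 to 4.97. The narrowest regions, up to 250 bp, did not continue this order and were lower after CFA, at 4.50 to 4.55 against 4.56 to 4.58. Median log2 fold changes by class were small, from -0.08 in the widest regions to 0.06 in regions of 251 to 400 bp, and 65.2% of the widest regions were lower after CFA.

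**Figure D1:**
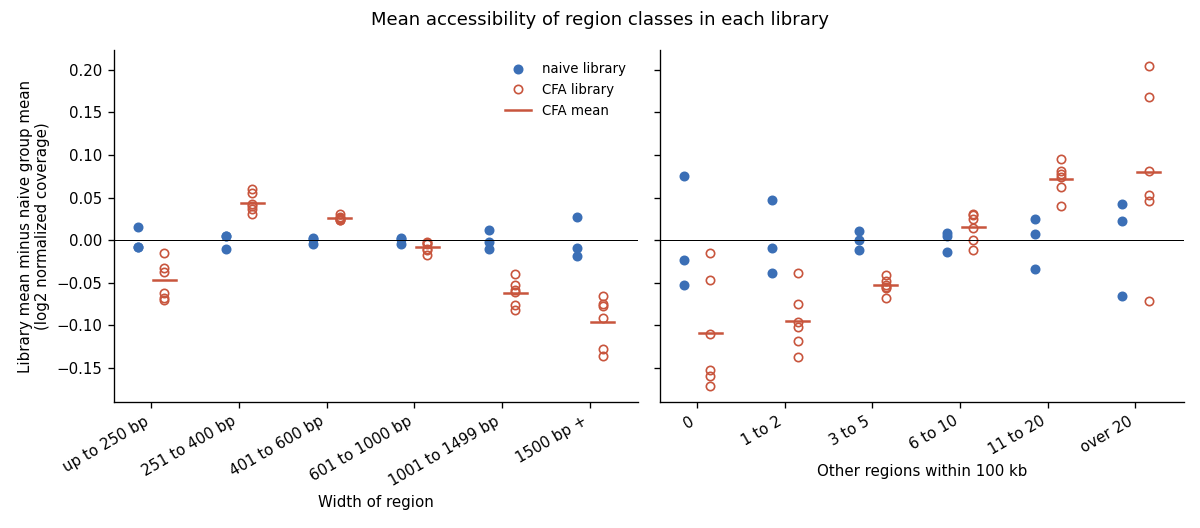
Mean log2 normalized coverage of each library over regions grouped by width (left, bp) and by the number of other regions within 100 kb (right), drawn as the difference from the mean of the naïve group. Filled points are the 3 naïve libraries, open points the 6 CFA libraries and bars the CFA means, and the CFA libraries lie below the naïve ones in the widest regions and above them where 11 to 20 other regions lie nearby.

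The direction of change also went with the number of open regions nearby. Where no other region lay within 100 kb, 4 DARs had gained and 19 had lost accessibility. With 1 to 2 neighbours the numbers were 20 gained and 82 lost, with 3 to 5 neighbours 39 and 116, and with 6 to 10 neighbours 107 and 78. With 11 to 20 other regions nearby 128 DARs had gained and 19 had lost, and with over 20 others 23 had gained and 2 had lost. The share of DARs ran from 0.979% with 6 to 10 neighbours to 1.57% with 1 to 2, against 1.12% over all regions. The classes thus differed in number as well, though less than in direction. Without naïve replicate 2 and CFA replicate 6 the order was less steep, with 6 gained and 6 lost DARs where no other region lay within 100 kb and 28 gained and 13 lost among 11 to 20 neighbours. Regions with 3 to 5 neighbours had 50.7% gained DARs without naïve replicate 1, against 25.2% with all libraries, and those with 1 to 2 neighbours 44.4% against 19.6%. In isolated regions the share was 17.4% with all libraries, 5% without CFA replicate b and 50% without naïve replicate 2.

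Class means by library gave the same order with more spread. Over the regions with 11 to 20 neighbours the naïve library means ran from 6.29 to 6.35 and the CFA means from 6.36 to 6.42, with no overlap, and 62.1% of these 14509 regions were higher after CFA. In the 12679 regions with 3 to 5 neighbours the naïve means were 5.82 to 5.84 and the CFA means 5.77 to 5.79, again with no overlap. For the 2028 isolated regions the groups did overlap, with naïve means of 5.16 to 5.29 against 5.04 to 5.20 after CFA. They also overlapped with 1 to 2, with 6 to 10 and with over 20 neighbours. Where over 20 other regions lay nearby, CFA replicate 3 had a mean of 6.320, below the lowest naïve mean of 6.326. Every other CFA library lay above the highest naïve mean there, 6.434. Medians of the log2 fold change ran from -0.11 in isolated regions to 0.08 with 11 to 20 neighbours, and under a cyclic loess normalization these values were -0.10 and 0.07. Counting neighbours within 50 kb or within 500 kb kept the order, with medians from -0.09 to 0.08 and from -0.10 to 0.07 between the extreme quintiles.

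Width and neighbourhood were then crossed. Among regions wider than 1000 bp with 0 to 2 neighbours the median log2 fold change was -0.24, and 1 gained and 43 lost DARs made up 4.04% of these 1090 regions. The naïve libraries had means of 7.71 to 7.82 there, above the CFA means of 7.47 to 7.60. Equally wide regions with over 10 neighbours had a median of 0.03, with 14 gained and 3 lost DARs among 3029 regions. At the other corner, regions of up to 400 bp with over 10 neighbours had a median of 0.10 and 37 gained and 5 lost DARs, and their naïve means of 5.11 to 5.20 lay below the CFA means of 5.23 to 5.28. Leaving out single libraries moved the median of the wide isolated regions between -0.28 and -0.21 and that of the narrow crowded regions between 0.07 and 0.10.

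**Figure D2:**
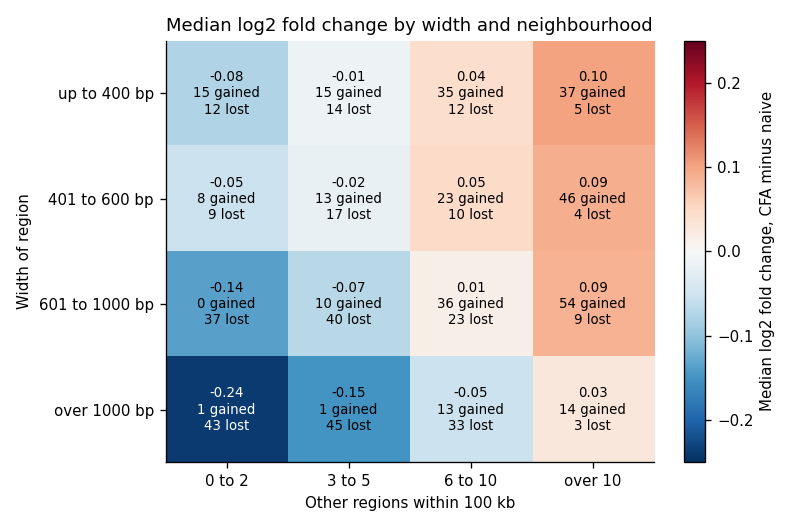
Median log2 fold change (CFA minus naïve) of regions grouped by width (rows) and by the number of other regions within 100 kb (columns), with the gained and lost DARs of each group written in the cell. The medians run from -0.24 in regions wider than 1000 bp with 0 to 2 neighbours to 0.10 in regions of up to 400 bp with over 10 neighbours.

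The share of DARs differed by level. The DARs made up 0.968% of the regions in the lowest quintile of mean level, 0.634% in the second, 0.642% in the middle, 1.24% in the fourth and 2.12% in the highest. From the lowest quintile to the highest, 68 DARs had gained and 42 had lost, then 33 and 39, 33 and 40, 53 and 88, and 134 and 107. When limma's variance model included an intensity trend, 44, 69, 119, 444 and 1689 regions of the 5 quintiles were called, fewer than without it in the lowest 2 quintiles and more in the other 3. The residual SD between libraries of a group fell over the same quintiles from a median of 0.38 to 0.13, so equal differences gave smaller p in regions of high coverage. Medians of the log2 fold change stayed between -0.03 and 0.02 in the 5 quintiles. When the quintiles were set by the naïve mean alone the median of the lowest quintile was 0.11, and when they were set by the CFA mean it was -0.09, so its sign depends on which libraries define the level.

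Within the fourth and highest quintiles of level, narrow regions and wide regions went apart. In the highest quintile the 405 regions of 401 to 600 bp had a median log2 fold change of 0.23, with 29 gained DARs and 1 lost, and their naïve means of 7.48 to 7.56 lay below CFA means of 7.70 to 7.76. The 7108 regions wider than 1000 bp in the same quintile had a median of -0.05 with 29 gained and 83 lost DARs, and naïve means of 8.398 to 8.400 against CFA means of 8.34 to 8.37. In the fourth quintile regions of up to 400 bp had 13 gained DARs and 0 lost, while regions wider than 1000 bp had 0 gained and 38 lost. The groups did not overlap in these 4 classes. Level was not equal within a quintile, as the naïve means in the highest quintile show. In the second and middle quintiles the medians were 0.06 and 0.11 up to 400 bp, against -0.06 and -0.05 at 601 to 1000 bp. The lowest quintile showed no such parting, with -0.03 up to 400 bp, -0.02 at 401 to 600 bp and -0.01 at 601 to 1000 bp.

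**Figure D3:**
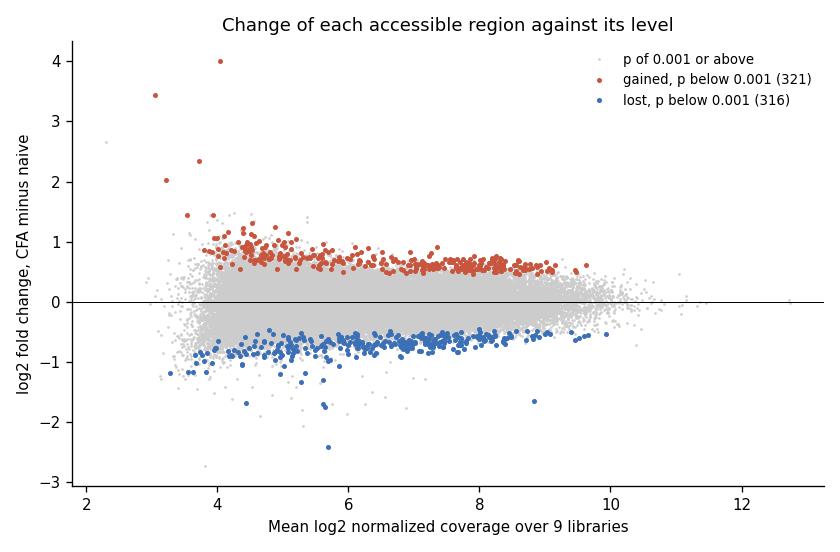
Log2 fold change (CFA minus naïve) of each region against its mean log2 normalized coverage over the 9 libraries. Grey points are regions with p of 0.001 or above, red points the 321 gained and blue points the 316 lost DARs, and the gained points above 2 at the upper left are the 4 regions on chromosome 8 that lie nearest to vomeronasal receptor genes.

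Regions close to each other had similar log2 fold changes. Across 2963 pairs of adjacent regions less than 500 bp apart, the log2 fold changes of the 2 regions correlated with a Pearson r of 0.44. The r was 0.27 for the 6669 pairs at 1 to 5 kb, 0.17 for the 19745 pairs at 5 to 20 kb and 0.04 for the 6077 pairs at 100 kb to 1 Mb. These correlations are across regions, which share the same 9 libraries and are not independent replicates, and the difference between naïve replicates 1 and 2 gave an r of 0.36, 0.18, 0.11 and 0.04 over the same pairs. Over all adjacent pairs the share with the same direction was 65.0% under 500 bp, 59.1% at 1 to 5 kb, 55.8% at 5 to 20 kb and 53.4% at 100 kb to 1 Mb. Both regions of a pair were DARs in 23 pairs of adjacent regions, and in 22 of these both changed in the same direction. Within 100 kb of another DAR lay 96 of the 637 DARs, and 52 of the 56 pairs they formed had the same direction. These 56 include all pairs among 4 gained regions of 1 stretch on chromosome 8, so they are not separate cases. The share over all pairs of regions within 100 kb was not computed.

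By chromosome, gained DARs were most frequent relative to lost ones on chromosome 12, with 26 gained and 2 lost, and on chromosome 10, with 35 gained and 7 lost. Losses outnumbered gains on chromosome 4, with 7 gained and 34 lost, on chromosome 14, with 7 and 20, and on chromosome 2, with 19 and 42. DARs made up 1.82% of the regions on chromosome 12 and 1.23% to 1.28% on chromosomes 10, 4, 14 and 2, against 1.12% over all regions. Chromosomes 10 and 12 also held more regions per Mb, 30.5 and 29.2, than chromosomes 4, 14 and 2, with 18.2, 18.7 and 17.9. On chromosome 4 the naïve means were 5.890, 5.915 and 5.878, and the CFA means ran from 5.845 over a median of 5.856 to 5.865, so that the groups did not overlap. This difference of -0.04 reached 0.0119 in an exact permutation test over the 84 ways to choose 6 of 9 libraries, two-sided, which is the smallest p this design allows, and its Benjamini-Hochberg adjusted p over 22 chromosomes was 0.262. No chromosome passed an adjusted p of 0.05 in the exact permutation test, and 4 had an unadjusted p below 0.05.

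On chromosomes 10 and 12 the groups overlapped although the counts of DARs were lopsided. Naïve means on chromosome 10 were 6.28, 6.21 and 6.29, and CFA means ran from 6.22 through a median of 6.35 to 6.39. The lowest library of each group was naïve replicate 2 with 6.21 and CFA replicate 6 with 6.22. For chromosome 12 the same 2 libraries were lowest in their groups, at 6.13 and 6.18, and the other 5 CFA libraries, from 6.24 to 6.29, lay above the other 2 naïve libraries, at 6.215 and 6.219. The exact permutation p was 0.119 for chromosome 10 and 0.0714 for chromosome 12, with adjusted values of 0.291 and 0.262. Regions with over 10 neighbours had median log2 fold changes of 0.11 on chromosome 10 and 0.06 on chromosome 4, and regions with 0 to 2 neighbours had -0.02 and -0.13.

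**Figure D4:**
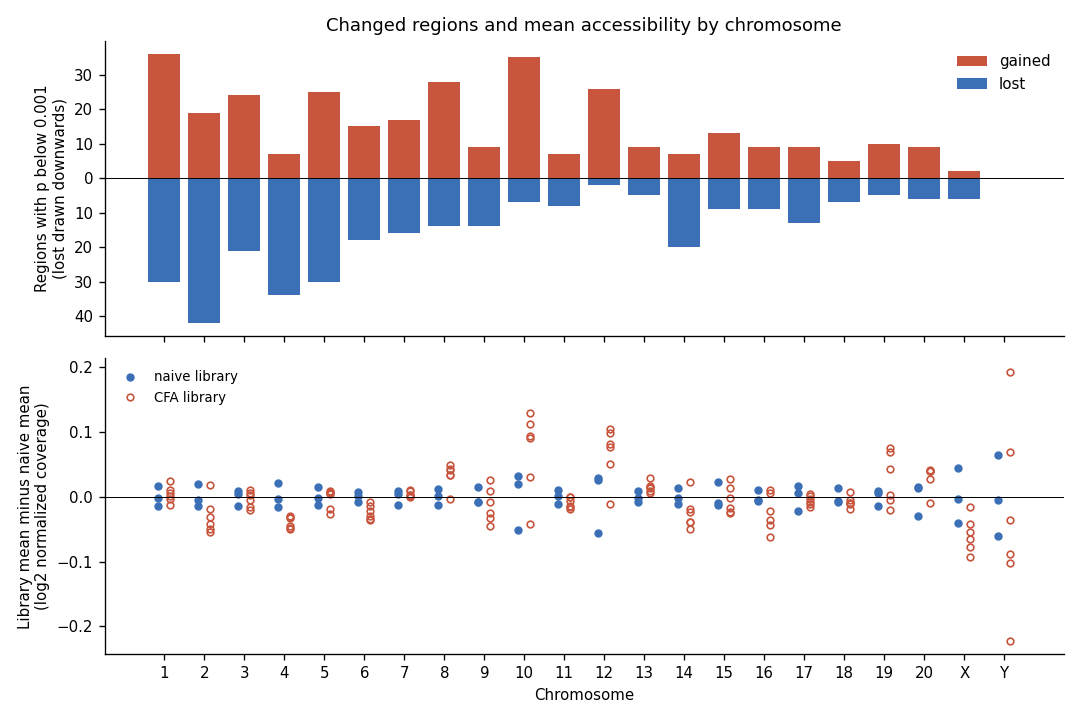
Number of gained (up) and lost (down) DARs on each chromosome (top) and the mean log2 normalized coverage of each library over the regions of a chromosome, as the difference from the naïve group mean (bottom). Filled points are naïve and open points CFA libraries, and on chromosome 4 the 6 CFA libraries lie below the 3 naïve libraries.

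Means over windows of 1 Mb were compared in the 2344 windows that held at least 5 regions. At an adjusted p below 0.05 in limma with Benjamini-Hochberg adjustment, 73 windows were lower after CFA, which is 3.11%, and 14 were higher, which is 0.597%. This count rests on single libraries. It was 0 without naïve replicate 1, CFA replicate 4 or CFA replicate 5, 1 without naïve replicate 2 or CFA replicate a, 3 without CFA replicate 3, 21 without CFA replicate b and 115 without CFA replicate 6. Sparse windows lay mostly below naïve and crowded ones mostly above, as 19.9% of the windows with 5 to 10 regions, 33.6% of those with 11 to 30 and 76.0% of those with over 30 regions had a higher mean after CFA.

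The 3 lost windows of smallest p held 0 or 1 DAR each, counts too small to compare with the 1.12% over all regions. On chromosome 9 from 59 to 60 Mb the 6 regions had naïve means of 5.69, 5.66 and 5.69, and CFA means from 5.20 through a median of 5.28 to 5.41. All CFA libraries were lower, 5 of the 6 regions had a negative change, and none of them was a DAR. On chromosome 14 from 103 to 104 Mb the naïve means were 5.41, 5.35 and 5.31 and the CFA means 5.06 to 5.13, with 13 of 16 regions lower and 1 DAR, a 338 bp region that fell by 0.80. On chromosome 4 from 89 to 90 Mb the naïve means were 6.30, 6.39 and 6.21 and the CFA means 5.91 to 6.04, with 12 of 14 regions lower and again 1 DAR, of 1023 bp, that fell by 0.71. These 3 windows differed by -0.38, -0.27 and -0.34, with adjusted p in limma of 0.0200, 0.0261 and 0.0261.

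Among gained windows, the one on chromosome 1 from 51 to 52 Mb had naïve means of 5.67, 5.63 and 5.76 and CFA means of 5.88 to 5.97 over 34 regions, 28 of which were higher. Of its 2 DARs, one of 979 bp rose by 0.63 and one of 919 bp by 0.57. The window on chromosome 8 from 77 to 78 Mb had naïve means of 5.83, 5.74 and 5.77 and CFA means of 5.94 to 6.06, with 20 of 24 regions higher and 1 DAR of 383 bp that rose by 0.88. The adjusted p of both windows in limma was 0.0385 and 0.0395. The third gained window, on chromosome 8 from 4 to 5 Mb with an adjusted p of 0.0399 in limma, held 4 DARs among 13 regions, of which 7 were lower after CFA.

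Those 4 regions form the stretch with the most DARs within 100 kb, with all 4 accessible regions within 49977 bp gained. They are the ones that the study lists nearest to Vom2r17 and Vom2r18, vomeronasal receptor genes whose products detect pheromones in the accessory olfactory system. The RefSeq table of GRCr8 places genes of these symbols on chromosome 1, and the link to chromosome 8 rests on the study's list. At chr8:4292048-4292933 the naïve libraries had 1.07, 1.85 and 1.21, and the CFA libraries had 2.63 at the lowest, 5.71 at the median and 6.55 at the highest, a difference of 4.01 ± 0.71 (SE, n = 6 and 3). The groups did not overlap, but the lowest CFA value, from CFA replicate 3, was nearer to the naïve values than to the next CFA value of 5.22. At chr8:4337259-4338234 the naïve values were 1.07, 0.59 and 0.59, and CFA replicate 3 had 1.21 where the other CFA libraries had 4.49 to 5.24. The 2 other stretches with 3 DARs each were also uniform in direction. On chromosome 10 3 of 4 regions within 14.5 kb rose by 0.52 to 0.67, and on chromosome 3 3 of 3 regions within 5.97 kb rose by 0.59 to 0.61.

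In 9 of the 10 regions chosen for the largest changes, CFA replicate 3 was the CFA library nearest to the naïve group. The DAR with the largest loss, chr12:5421308-5422533, had 6.89, 7.92 and 7.09 in the naïve libraries and 4.07, 4.76 and 6.27 as the lowest, median and highest CFA value. It fell by 2.41, and without CFA replicate 3, which had the highest of these values, it fell by 2.68. At chr1:11929669-11930797, of high coverage, the naïve values were 9.75, 10.04 and 10.01 and the CFA values 7.81, 8.09 and 9.37, and it fell by 1.65. Coverage at chr6:31063185-31063966 fell by 1.75, at chr17:89653728-89655260 it fell by 1.70 and at chr5:77686676-77687059 it fell by 1.68. In each of these 3 the 5 other CFA libraries lay well below CFA replicate 3, which had 6.36, 6.31 and 5.15 beside lowest naïve values of 6.59, 6.53 and 5.42. The position of CFA replicate 3 was not seen over all DARs, of which it was the library nearest to naïve in 15.9%, against 33.0% for CFA replicate a. What sets CFA replicate 3 apart in the largest changes was not tested.

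The regions of smallest p were taken as 5 gained and 5 lost DARs, among those without overlap between the groups. At chr8:55135611-55135765, of 154 bp, which is also among the regions of largest change, the naïve libraries had 2.71, 3.04 and 3.18 and the CFA libraries 3.97, 4.45 and 4.70, and accessibility rose by 1.44 ± 0.17 (SE, limma p of 3.78e-06). At chr6:107364509-107364914 the values were 5.02, 5.03 and 5.15 in naïve and 5.81, 5.88 and 6.08 after CFA, a rise of 0.85. Regions at chr12:24232652-24232886 and chr11:62555194-62555436, of 234 and 242 bp, rose by 1.25 and 1.06. With the region near Mtdh, the 5 gained regions of smallest p were 154 to 548 bp wide, and the 5 lost ones 740 to 1056 bp.

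Among the lost regions chr5:74517155-74518110 had 6.92, 6.77 and 6.47 in the naïve libraries and only 5.73 to 5.88 in the CFA libraries, a fall by 0.91 ± 0.12 (SE). At chr17:45187878-45188934 the naïve values were 7.30, 7.51 and 7.33 and the CFA values 6.55, 6.65 and 6.73. The losses at chr3:47517983-47518723, chr8:96409418-96410254 and chr9:110329849-110330732 were by 0.76, 0.86 and 0.88. Absence of overlap was a condition for choosing these 10 regions, which include one nearest to Mtdh, and is not a result. Their p in limma stayed below 0.001 in all 9 fits without 1 library, which a choice by smallest p favours. With the intensity trend the limma p at chr11:62555194-62555436 was 0.00108. The exact permutation test gave 0.0119, the smallest p it can give, for each of the 50 regions named by rule, so it does not rank them.

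**Figure D5:**
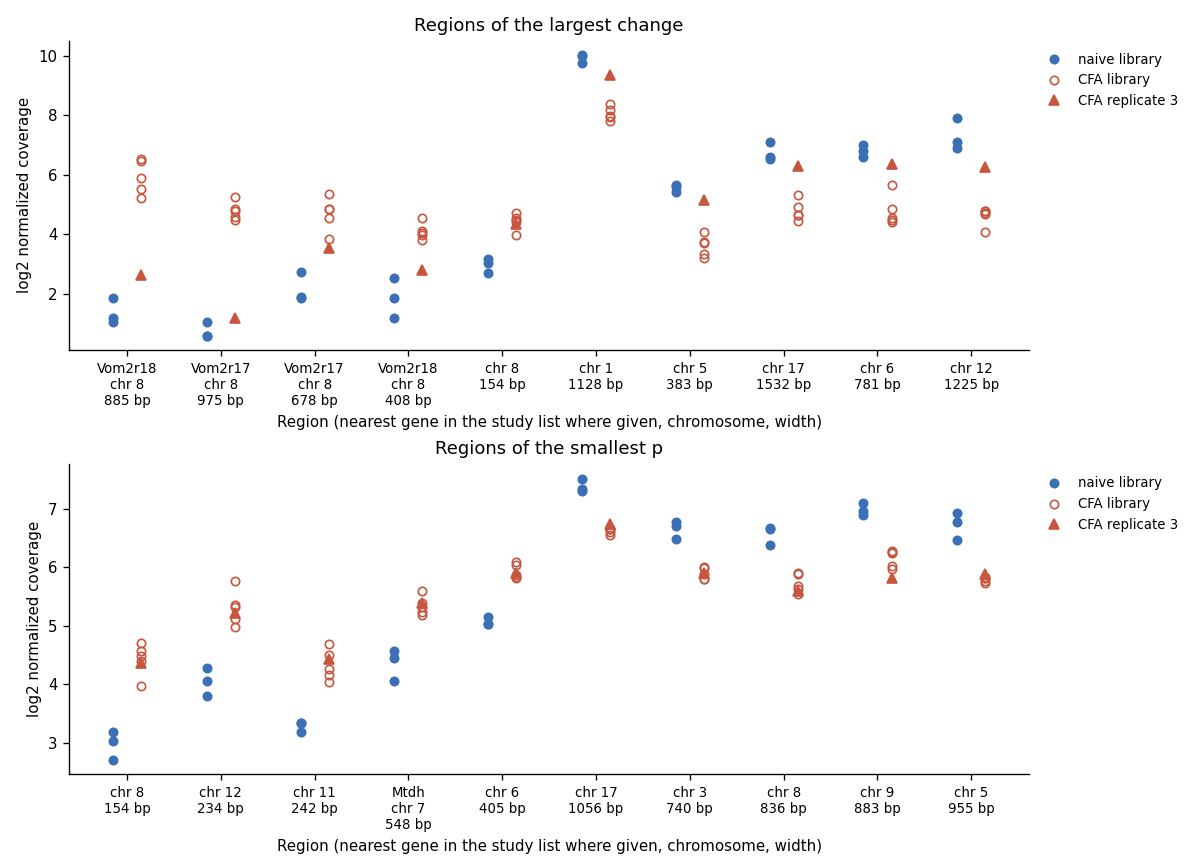
Log2 normalized coverage in each library for the 5 gained and 5 lost DARs with the largest changes (top) and with the smallest p (bottom). Filled points are naïve libraries, open points CFA libraries and triangles CFA replicate 3, which lies nearest to the naïve group in 9 of the 10 regions of largest change.

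The study lists 31 of these DARs with their nearest gene, chosen because they also changed in a nerve injury model tested against the same naïve libraries. They were chosen on these values, so their counts are a description, and 21 of them gained and 10 lost accessibility after CFA. In the limma fits without 1 library 7 of the 31 kept p below 0.001 throughout. With the intensity trend 13 of the 50 regions named by rule, which include these 31, had a limma p of 0.001 or above. Near and nearest here refer to the gene closest along the chromosome in the study's list, at any distance. The listed distance is over 1 Mb for Cobl, Pcdh9 and Olr1065. It is over 100 kb for Tshz3, Grik4, Agtpbp1, Sh2d4a, Mtdh, Epha3 and Clec4m. Whether a region acts on its listed gene was not tested. The gene groups below were set here and not by the study, with earlier results of these data known. Counts by group therefore describe this sorting and were not tested.

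Regions nearest to genes of transcription and chromatin were all lost, 4 of 4. The Msx2 region at chr17:11683581-11684211, listed at the start of a homeobox transcription factor gene, had 6.67, 6.15 and 6.24 in the naïve libraries and 4.96, 5.50 and 5.60 as the lowest, median and highest CFA value. It fell by 0.99, and p stayed below 0.001 in 8 of 9 fits. The Tshz3 region, near a zinc finger homeobox gene, had 4.43, 4.18 and 4.44 in naïve and 3.01 to 3.72 after CFA. It fell by 1.01 and kept its call in 9 of 9 fits without 1 library, but with the intensity trend its limma p was 0.0042. Near Nr3c2, which encodes the mineralocorticoid receptor, the fall was by 0.64 and was kept in 7 of 9 fits. The region near Cxxc4, which encodes a CXXC zinc finger protein of the Wnt pathway, fell by 0.68 and was kept in 3 of 9.

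Of the 7 regions sorted here under genes of synapse, adhesion, axon and cytoskeleton, 4 gained and 3 lost accessibility. The lost region of Wdr60, the gene of a dynein-2 intermediate chain, was counted among the remaining regions and not here. The region near Cobl, an actin nucleator, had 3.87, 3.92 and 3.60 in naïve and 4.30, 4.77 and 5.18 after CFA, and rose by 0.996. The region near Epha3, an ephrin receptor that guides axons, had 4.30, 4.01 and 4.16 in naïve and 4.50 to 5.11 after CFA, and its rise by 0.69 was kept in 1 of 9 fits. Kif13b, which encodes a kinesin motor, was the only gene of this group whose region kept its call in 9 of 9 fits. The other gained region lies nearest to Pcdh9, a protocadherin, and the lost ones to Grik4, a kainate receptor subunit, Dlg3, a synaptic scaffold, and Agtpbp1, an enzyme that trims glutamate residues from tubulin.

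All 8 regions nearest to genes of signalling and transport gained accessibility, with differences of 0.67 to 1.31. The region near Slc46a3, a lysosomal transporter, had 3.97, 3.33 and 3.70 in the naïve libraries and 4.43, 5.02 and 5.25 after CFA, and rose by 1.31 ± 0.19 (SE). The Cp region, near the gene of the copper-carrying ferroxidase ceruloplasmin, had the highest coverage of the group, with 7.18, 7.14 and 7.06 in naïve and 7.64, 7.80 and 7.94 after CFA. Both kept their calls in 9 of 9 fits, as did the region near Mtdh, the gene of metadherin. Near Slc24a5, an ion exchanger gene, and Lpar1, a lysophosphatidic acid receptor gene, the calls were kept in 7 of 9 fits, and near Sh2d4a, Arap2 and Map2k5 in 4, 3 and 1 of 9.

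The 6 regions nearest to chemosensory and pathogen receptor genes all gained, with the 4 Vom2r regions on top. The region near Clec4m, a C-type lectin that binds pathogens, had 4.94, 5.21 and 5.25 in naïve and 5.51, 6.01 and 6.22 after CFA. The region that the study lists nearest to the odorant receptor gene Olr1065 had 3.33, 3.33 and 3.01 in naïve and 3.62, 4.06 and 4.43 after CFA. Their rises by 0.83 and 0.86 were kept in 3 and 1 of 9 fits. The RefSeq table of GRCr8 places Olr1065, under the name Or6c33b, on chromosome 7. Its link to the region on chromosome 13 rests on the study's list. Among the remaining 6 regions 3 gained, near Rrm2b, LOC500846 and LOC498155, and 3 lost, near Wdr60, Rbis and Mpped2, and only the Wdr60 region kept its call in 9 of 9 fits.

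The study cloned 4 of these regions into luciferase reporters, and the primers are shown because they fix the exact segments cloned. The coverage values are those of the DARs, which are shorter than the segments. In each primer the capitals mark the added restriction site, ACGCGT (MluI) in left and AGATCT (BglII) in right primers, at bases 5 to 10 from the 5′ end. The cloned segments are chr6:144123318-144124010 (Wdr60), chr7:72282622-72283216 (Mtdh), chr7:76825820-76826319 (Rrm2b) and chr14:48665279-48665702 (Arap2) in rn6, and each contains its whole DAR.
Wdr60 construct, left primer: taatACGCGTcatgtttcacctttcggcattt
Wdr60 construct, right primer: gcgcAGATCTgaattaaaggtgtgcgctgc
Mtdh construct, left primer: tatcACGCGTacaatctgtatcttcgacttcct
Mtdh construct, right primer: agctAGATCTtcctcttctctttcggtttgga
Rrm2b construct, left primer: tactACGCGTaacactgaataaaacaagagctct
Rrm2b construct, right primer: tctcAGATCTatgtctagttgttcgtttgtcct
Arap2 construct, left primer: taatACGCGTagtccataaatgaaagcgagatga
Arap2 construct, right primer: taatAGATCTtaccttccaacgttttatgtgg
The Mtdh region had 4.05, 4.57 and 4.44 in the naïve libraries and 5.19, 5.35 and 5.60 as the lowest, median and highest CFA value, a rise by 1.001 ± 0.14 (SE). The Wdr60 region, at the start of the gene of a dynein-2 intermediate chain, had 7.92, 7.83 and 7.56 in naïve and 6.96, 7.04 and 7.16 after CFA. Its coverage was the highest of the 4, and the groups lay 0.40 apart at their nearest values. The Rrm2b region, near a ribonucleotide reductase subunit gene, had 4.57, 4.69 and 4.78 in naïve and 5.07 to 5.73 after CFA. The Arap2 region, near a gene of Arf GTPase control, had 3.68, 4.28 and 3.60 in naïve and 4.49 to 5.15 after CFA. The calls of the first and second were kept in 9 of 9 limma fits without 1 library and those of the others in 3 of 9.

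Among the genes with 1 matched RefSeq promoter, the lost DARs that the study lists closest to a gene start were Msx2, Wdr60 and Cxxc4. Dlg3, listed nearer to its gene than Cxxc4, was not among these genes. The promoters of Msx2, Wdr60 and Cxxc4 are shown for their base composition. The windows run from 250 bases before to 50 bases after the annotated start in GRCr8, at chr17:11102034-11102333 on the plus strand for Msx2, chr6:143331525-143331824 on the minus strand for Wdr60, now named Dync2i1, and chr2:225338339-225338638 on the plus strand for Cxxc4. Capitals mark each CG.
Msx2: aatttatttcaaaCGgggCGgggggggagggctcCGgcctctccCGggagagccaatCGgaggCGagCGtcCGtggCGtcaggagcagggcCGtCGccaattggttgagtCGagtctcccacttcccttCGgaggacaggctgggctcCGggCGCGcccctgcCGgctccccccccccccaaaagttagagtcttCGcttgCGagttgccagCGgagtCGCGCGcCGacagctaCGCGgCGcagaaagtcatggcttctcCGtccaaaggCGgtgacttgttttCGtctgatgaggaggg
Wdr60 (Dync2i1): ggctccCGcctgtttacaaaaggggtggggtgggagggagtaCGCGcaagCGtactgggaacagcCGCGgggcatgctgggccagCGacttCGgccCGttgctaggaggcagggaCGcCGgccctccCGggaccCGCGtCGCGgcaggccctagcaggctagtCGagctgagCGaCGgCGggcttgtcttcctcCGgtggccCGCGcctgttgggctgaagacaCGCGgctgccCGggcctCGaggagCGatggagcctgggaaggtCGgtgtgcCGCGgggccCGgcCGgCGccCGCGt
Cxxc4: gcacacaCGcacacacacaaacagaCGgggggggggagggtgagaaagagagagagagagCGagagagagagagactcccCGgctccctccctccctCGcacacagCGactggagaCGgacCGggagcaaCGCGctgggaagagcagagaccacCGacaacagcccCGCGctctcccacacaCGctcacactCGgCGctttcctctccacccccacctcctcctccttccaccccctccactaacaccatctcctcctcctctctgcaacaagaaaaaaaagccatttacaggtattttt
The Msx2 window holds 30 CG dinucleotides and the Wdr60 window 36, and 10.3% and 5.43% of the 33469 rat promoters in the table hold at least as many. The Cxxc4 window holds 16, which 30.5% of promoters reach or exceed, against a median of 7. Both strands read the same for CG, and G and C together make up 65.3%, 73.0% and 60.0% of these windows. The table matched 16 of the 29 listed genes by symbol or synonym. Over these 16 the windows of genes listed for gained regions held from 0 CG (Vom2r17) to 24 (Map2k5). Those of genes listed for lost regions held from 4 (Grik4) to 36 (Wdr60), so CG-rich windows were not confined to lost regions. The windows of Vom2r17 and Vom2r18 lie on chromosome 1 and that of Olr1065 on chromosome 7, apart from their listed regions on chromosomes 8 and 13. The regions are given in rn6 and the promoters in GRCr8, and whether they overlap was not tested.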

How the data were processed

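ATAC-seq of 6 CFA and 3 naïve libraries was analysed. Groups and replicate numbers were taken from the labels. The authors aligned reads to rn6 with Bowtie2, called peaks with MACS2, and deposited log2 normalized coverage per consensus region, with the runs of a library in 1 column. The normalization is not named in the sources used here, and the columns share a distribution as quantile normalization gives. Each line of the table is quoted as a whole, so the values were treated as another unit in the file check and as log2 values in the tests. For the tissue check, the authors deposited raw RNA-seq counts per Ensembl gene, scaled here to CPM, and gene symbols came from the study's supplementary tables. The table of the other pain model was not used.

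Regions and the means of 1 Mb windows were tested with limma 3.58.1 in R 4.3.3, two-sided, with Benjamini-Hochberg adjustment, and regions were called at the study's unadjusted p of 0.001. Chromosome means and single regions were compared by exact permutation tests over 84 assignments. Width, level and neighbourhood classes are descriptions without a test. The scripts were tested on simulated data. Tables and figures were made with Python 3.11.15, numpy 2.4.6, pandas 2.3.3 and matplotlib 3.10.9. Members, classes and lists were chosen with earlier results of these data known. Named regions are the 5 gained and 5 lost DARs of smallest p without overlap, the 5 and 5 of largest change, the 31 regions the study lists with a gene, the 4 reporter regions, the DARs in the 3 windows of smallest p per direction, and the 100 kb stretches with the most DARs. The study's methods give 1 rat per library, and the labels add only replicate numbers and runs. The p-values measure the spread between these libraries. Coordinates are those of the deposited table in rn6, without conversion, and sequences of rn6 were not analysed here. Alternatives were other variance models, normalizations, filters, thresholds and class limits, leaving out each library and, added after seeing the data, leaving out naïve replicate 2 with CFA replicate 6 and the regions around Vom2r17 and Vom2r18. The value of 1 of the markers listed for the tissue check is not reported here.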

Additional observations from a re-analysis of the deposited data

Results flagged for a closer look

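Among 95 sets of CFA values looked at, 8 had 1 library set apart from the other 5 by a gap larger, as a share of the range, than Dixon's critical value for 6 values, where chance gives about 1 set in 20. CFA replicate 3 stood apart in 5 of the 8. The gap was 0.814 of the range at the Vom2r17 region chr8:4337259-4338234, where it had 1.21 and the next library 4.49, and 0.66 at the Vom2r18 region chr8:4292048-4292933, where it had 2.63 and the next library 5.22. It was 0.672 at chr12:5421308-5422533, with 6.27 beside 4.79, and 0.639 at chr1:11929669-11930797, with 9.37 beside 8.37. At the Slc46a3 region the gap was 0.657, with 4.43 beside 4.97.

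CFA replicate a stood apart near LOC500846 by 0.643 of the range, with 3.97 beside 4.75. CFA replicate 6 had the lowest mean on chromosome 8, by 0.697 of the range at 6.01 beside 6.05, and on chromosome 20, by 0.736 at 6.07 beside 6.11.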

How the results depend on the processing

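The 637 DARs became 2365 with an intensity trend, 3942 at an unadjusted p below 0.01, 1546 and 0 at an adjusted p below 0.1 and 0.05, and 6270 by absence of overlap alone. Without 1 library they were 288 to 572, and 251 without naïve replicate 2 and CFA replicate 6, of which 120 were among the 637. The 87 windows of 1 Mb became 0 to 115 without 1 library, 2 without both of the above, 163 at 500 kb, 45 at 5 Mb, 13 with medians over regions and 160 with an intensity trend. No chromosome passed an adjusted p of 0.05 under any alternative run. Over 13 alternatives the 50 named regions kept their direction, and p was below 0.001 in 449 of 650 refits.

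The depth behind each value is unknown, so low regions cannot be given a counting error. The shared distribution of the columns hides a change common to all regions. No paired analysis was possible because 2 CFA columns could not be tied to a numbered library by the labels, which leaves 1 number shared with the naïve columns. No fit by sequencing run was made because each column joins both runs of its library.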

Other observations

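Among the 40 DARs that changed by more than 1 on the log2 scale, 21 gained and 19 lost accessibility. CFA replicate 3 was the CFA library nearest to the naïve mean in 6 of the 21 gained and in 10 of the 19 lost regions, and none of the other 5 libraries was nearest in more than 3 of the lost ones. Within 1 Mb of another DAR lay 314 of the 637 DARs, and 188 of the 236 pairs they formed had the same direction. These pairs share regions and are not separate cases, and the share over all pairs of regions within 1 Mb was not computed.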
